A study of Ovis aries with 3 samples.

Results

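The leukocyte and inflammation miRNAs described here are the entries named miR-142, miR-142a, miR-223, miR-150, miR-155, miR-146a, miR-146b or miR-342, with any arm, in the count tables of small RNA sequencing of sheep left ventricle. They were selected by name, without a threshold on any measured value, which gave 9 of 636 entries. The names themselves were chosen with earlier results of these data known. Each condition was 1 library, made from RNA pooled before sequencing, and all animals were Coopworth ewes. HF-R was ventricle from 4 sheep after recovery from heart failure, HF was ventricle from 6 sheep in heart failure brought on by rapid left ventricular pacing, and Cont was ventricle from 4 normal sheep that were not paced. The labels give pacing both as about 220 bpm for 13 days and as 225 bpm for 14 days, and recovery both as 26 days and as 14 further days after pacing was stopped. With 1 pooled library per condition there was no replicate and hence no test of a difference between conditions, and each 95% interval covers counting error only and not the spread between sheep.

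These miRNAs are made mainly in blood-derived cells or are switched on by inflammatory signals. miR-142 is made from both arms of a hairpin that is expressed across haematopoietic cells, miR-150 is abundant in mature lymphocytes and targets the transcription factor MYB, and miR-223 is a miRNA of neutrophils and other myeloid cells. miR-155 is cut from the BIC transcript, is induced in activated lymphocytes and macrophages and targets SOCS1, a brake on cytokine signalling. miR-146a is induced through NF-kB, and miR-146a and miR-146b target IRAK1 and TRAF6, components of Toll-like receptor signalling. In heart tissue, RNA of resident or infiltrating leukocytes is mixed with that of muscle, vessel and connective tissue cells, so that fewer cells of a type and less of a miRNA per cell cannot be told apart here.

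The 9 entries came from 5 loci, and 8 of them matched a known miRNA over 100% of its length. No entry for miR-146a or miR-342 was among those analysed here. The mature sequences of the 6 abundant entries and of rno-miR-223-3p are given as deposited, 5′ to 3′, because bases 2 to 8, the seed in capitals, set which transcripts a miRNA can pair with.
hsa-miR-155-5p: tTAATGCTaatcgtgataggggt
hsa-/mmu-/rno-/oar-miR-150-5p: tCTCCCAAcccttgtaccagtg
hsa-/mmu-/rno-miR-142-3p: tGTAGTGTttcctactttatgga
hsa-/mmu-/rno-miR-142-5p: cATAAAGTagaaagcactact
rno-miR-146b-5p: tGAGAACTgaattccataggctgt
hsa-/mmu-miR-146b-5p: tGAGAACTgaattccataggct
rno-miR-223-3p: tGTCAGTTtgtcaaatacccc

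The 2 miR-146b-5p entries shared the seed GAGAACT and the same 5′ end, and differed only in length, at 24 nt for the rat form and 22 nt for the human and mouse form. The other members each had a seed of their own, and no entry outside the group shared a seed with any of them (0 other entries for each of 8 seeds). On the sheep assembly Oar_v4.0, miR-142-3p lay at chr11:8831671-8831693 and miR-142-5p at chr11:8831709-8831729, both on the minus strand as the arms of 1 hairpin. miR-150-5p lay at chr14:54868288-54868309 and miR-155-5p at chr1:128884733-128884755, both on the minus strand. miR-146b-5p lay at chr22:22198344-22198365 (22 nt form) or chr22:22198344-22198367 (24 nt form) and rno-miR-223-3p at chrX:46042554-46042574, both on the plus strand. No annotation of that assembly was used here, so host genes and exons were not assigned.

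The 621 distinct entries summed to 5990078 counts in HF-R, 6154795 in HF and 4711131 in Cont, and levels are given as CPM, the share of these totals scaled to parts per 1e6. A call, higher or lower, needed a CPM ratio 1.5-fold away from 1 in either direction and an interval without 1. Of the 356 entries that averaged 10 counts or more over the libraries, HF/Cont had 81 (22.8%) called higher and 28 (7.87%) lower. HF-R/Cont had 17 (4.78%) called higher and 40 (11.2%) lower, and HF-R/HF had 18 (5.06%) called higher and 83 (23.3%) lower. These splits depended on the scaling. With edgeR's TMM they were 42 higher and 74 lower for HF/Cont and 58 higher and 33 lower for HF-R/HF, with DESeq2's size factors 52 and 53, and 44 and 41. Without miR-1 in the totals they were 28 higher and 24 lower for HF-R/Cont and 24 and 53 for HF-R/HF, and raw counts gave 160 higher and 6 lower for HF/Cont and 71 and 10 for HF-R/Cont. The median log2 ratio of the 356 entries was 0.16 for HF/Cont by CPM and -0.19 by TMM, and the corresponding medians for HF-R/HF were -0.29 and 0.06. Changes relative to the median are therefore also given, since they are the same under every scaling.

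Of the 9 members, 6 reached a mean of 10 counts. In HF/Cont 4 of these 6 were called lower and 0 higher by CPM, against background shares of 7.87% and 22.8%. TMM and DESeq2's size factors each also called 4 lower and 0 higher, where 20.8% and 14.9% of all entries were called lower. The 4 were miR-150-5p, miR-142-5p and both lengths of miR-146b-5p, which by CPM stood at 0.566 to 0.655 of Cont. The 2 lengths of miR-146b-5p come from 1 locus, and with the partial reads described below added, neither was called lower. miR-142-3p and miR-155-5p were not called. In HF-R/Cont 1 of 6 was called lower, the 24 nt form of miR-146b-5p, and 0 of 6 higher, against background shares of 11.2% and 4.78%. In HF-R/HF 0 of 6 were called by CPM, against background shares of 23.3% lower and 5.06% higher. TMM and DESeq2's size factors each called 3 of 6 higher in HF-R/HF and 0 lower, where 16.3% and 12.4% of all entries were called higher. All 9 members together summed to 574 CPM in HF-R, 538 CPM in HF and 695 CPM in Cont. These sums were 0.0574%, 0.0538% and 0.0695% of the counts summed over the distinct entries, and not of all reads in those libraries. The summed HF/Cont ratio was 0.775 (95% interval 0.738 to 0.813), the HF-R/Cont ratio 0.826 (0.787 to 0.867) and the HF-R/HF ratio 1.07 (1.02 to 1.12).

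**Figure D1:**
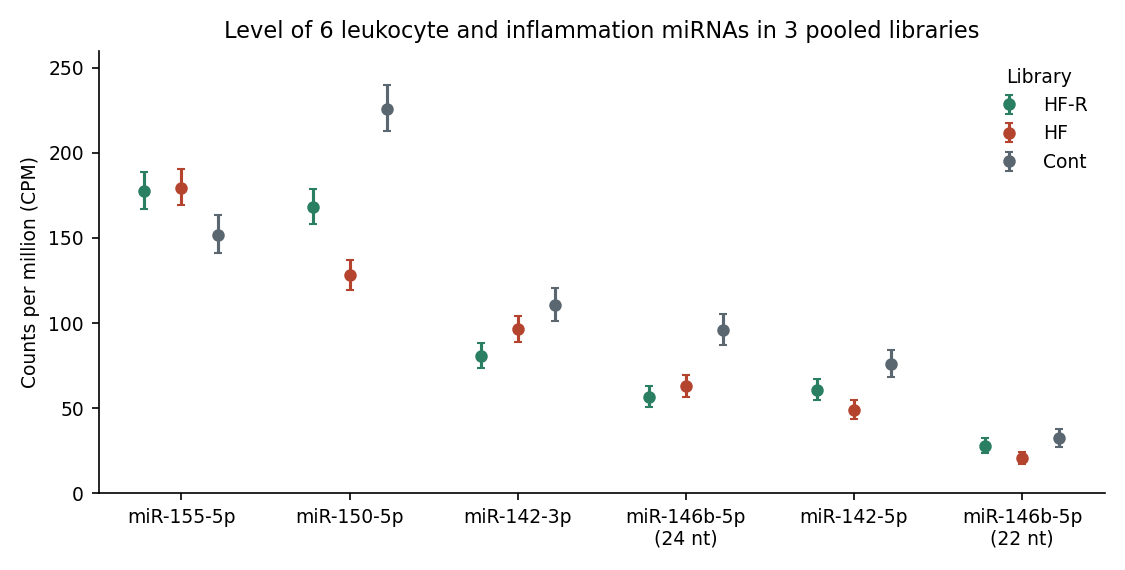
Level of the 6 members that averaged 10 counts or more, in CPM (vertical axis, from 0), in the HF-R, HF and Cont library, with bars for the exact Poisson 95% interval (counting error only, 1 pooled library each). miR-150-5p stood at 168 CPM in HF-R, 128 CPM in HF and 226 CPM in Cont, while miR-155-5p stood at 178, 179.5 and 152 CPM in the same order.

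miR-150-5p, the lymphocyte miRNA, had the lowest HF/Cont ratio of the 6. The entry hsa-/mmu-/rno-/oar-miR-150-5p had 1008 counts (168 CPM, 95% interval 158 to 179) in HF-R, 788 counts (128 CPM, 119 to 137) in HF and 1065 counts (226 CPM, 213 to 240) in Cont. The 3 intervals did not overlap, with HF lowest and HF-R between HF and Cont. miR-150-5p in HF stood at 0.566 of Cont (0.516 to 0.622). In HF-R it stood at 0.744 of Cont (0.682 to 0.812) and at 1.31 of HF (1.2 to 1.44). Relative to the median entry, the log2 ratio of miR-150-5p was -0.98 in HF/Cont, -0.40 in HF-R/Cont and 0.69 in HF-R/HF. Its HF-R/HF ratio passed the 1.5-fold size under TMM (1.68) and DESeq2's size factors (1.60) but not under CPM. It was the only member among the known sheep entries, and its rows in the tables of each library were blank, so the part of its count that came from exact reads was not checked.

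By CPM, the arms of miR-142 did not share the same order of libraries. The entry of miR-142-5p had 364 counts (60.8 CPM, 54.7 to 67.3) in HF-R, 302 counts (49.1 CPM, 43.7 to 54.9) in HF and 358 counts (76.0 CPM, 68.3 to 84.3) in Cont, so that HF was lowest, with an interval that just met that of HF-R. The entry of miR-142-3p had 484 counts (80.8 CPM, 73.8 to 88.3) in HF-R, 592 counts (96.2 CPM, 88.6 to 104) in HF and 521 counts (111 CPM, 101 to 121) in Cont, so that HF-R was lowest. miR-142-5p was called lower in HF at 0.646 of Cont (0.552 to 0.755), and in HF-R it stood at 0.800 of Cont (0.689 to 0.928) and at 1.24 of HF (1.06 to 1.45). miR-142-3p in HF stood at 0.870 of Cont (0.772 to 0.980), and in HF-R at 0.731 of Cont (0.644 to 0.828) and 0.840 of HF (0.743 to 0.949), none of which reached 1.5-fold. The HF-R/HF ratio of miR-142-5p was 1.58 (1.36 to 1.85) by TMM and 1.5 (1.29 to 1.76) by DESeq2's size factors, both called higher. By TMM and DESeq2's size factors, the HF-R/HF ratio of miR-142-3p was on the other side of 1, at 1.07 and 1.02, with intervals that took in 1. The order of libraries was then the same for both arms, with HF lowest.

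The share of the 5p arm among exact reads of both arms of miR-142 does not depend on library scaling. It was 42.9% (Clopper-Pearson 95% interval 39.6 to 46.3; 364 of 848 counts) in HF-R, 33.8% (30.7 to 37.0; 302 of 894) in HF and 40.7% (37.5 to 44.1; 358 of 879) in Cont. The HF interval lay below both others, which overlapped each other. With both arms summed, miR-142 stood at 0.759 of Cont (0.690 to 0.835) in HF-R and at 0.779 of Cont (0.709 to 0.855) in HF.

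**Figure D2:**
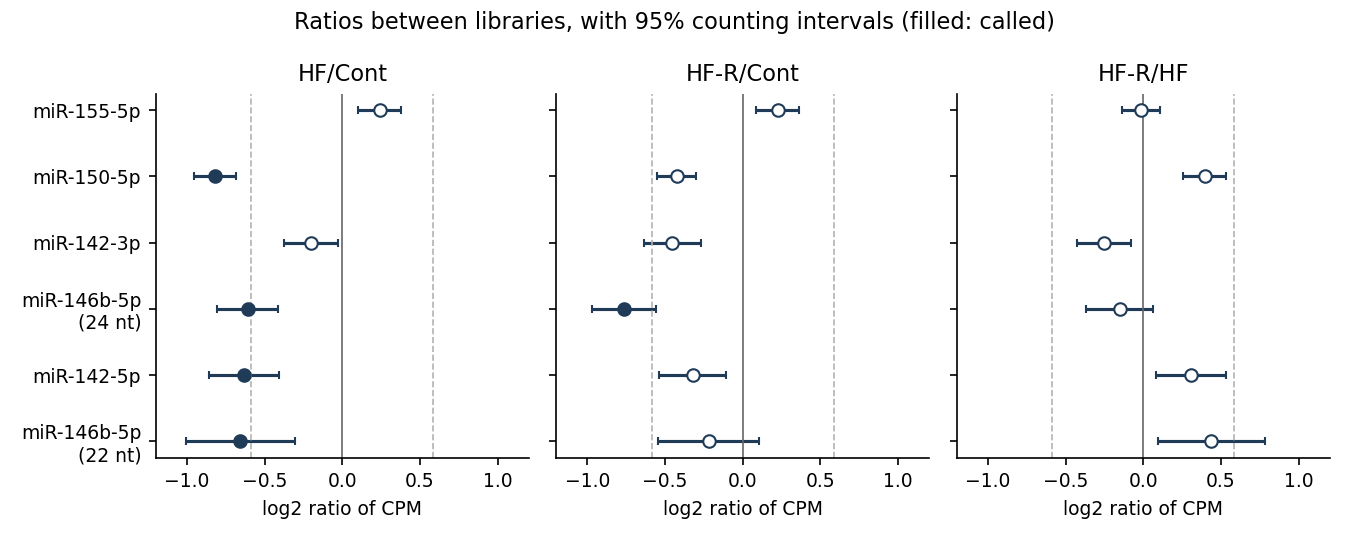
log2 ratio of CPM between libraries for the 6 members (rows) in HF/Cont, HF-R/Cont and HF-R/HF (panels), with bars for the 95% counting interval, filled points for called ratios, a solid line at 0 and dashed lines at 1.5-fold. Filled points are 4 of 6 in HF/Cont, 1 of 6 in HF-R/Cont and 0 of 6 in HF-R/HF.

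miR-146b-5p was lower in HF in both lengths among exact reads. The entry rno-miR-146b-5p, the 24 nt form, had 339 counts (56.6 CPM, 50.7 to 63.0) in HF-R, 387 counts (62.9 CPM, 56.8 to 69.5) in HF and 452 counts (95.9 CPM, 87.3 to 105) in Cont. Cont stood above both others, whose intervals overlapped. The entry hsa-/mmu-miR-146b-5p, the 22 nt form, had 166 counts (27.7 CPM, 23.7 to 32.3) in HF-R, 126 counts (20.5 CPM, 17.1 to 24.4) in HF and 152 counts (32.3 CPM, 27.3 to 37.8) in Cont. Here the HF interval overlapped that of HF-R and not that of Cont, and those of HF-R and Cont overlapped too.

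The ratios of the 24 nt form of miR-146b-5p were 0.655 in HF/Cont (0.571 to 0.752), 0.590 in HF-R/Cont (0.511 to 0.681) and 0.900 in HF-R/HF (0.776 to 1.04). Those of the 22 nt form were 0.635 (0.497 to 0.809), 0.859 (0.685 to 1.08) and 1.35 (1.07 to 1.72) in the same comparisons. The HF-R/HF ratio of the 22 nt form of miR-146b-5p was called higher by TMM, at 1.73 (1.36 to 2.20), and by DESeq2's size factors, at 1.65 (1.30 to 2.09). Among the exact reads of both forms, the 24 nt form made up 67.1% (62.8 to 71.2; 339 of 505) in HF-R, 75.4% (71.5 to 79.1; 387 of 513) in HF and 74.8% (71.2 to 78.2; 452 of 604) in Cont, so the HF-R interval ended below that of HF and just reached that of Cont. With both forms summed miR-146b-5p stood at 0.658 of Cont (0.583 to 0.741) in HF-R and at 0.650 of Cont (0.577 to 0.733) in HF, both called lower. The 3p arm was almost absent, with 5, 4 and 4 counts of rno-miR-146b-3p in HF-R, HF and Cont, and with 1 count of mmu-miR-146b-3p in HF-R, a blank in HF and 1 count in Cont.

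miR-155-5p had another pattern than the other 5 abundant entries. The entry hsa-miR-155-5p had 1065 counts (178 CPM, 167 to 189) in HF-R, 1105 counts (179.5 CPM, 169 to 190.4) in HF and 716 counts (152 CPM, 141 to 164) in Cont. The intervals of HF-R and HF lay above that of Cont and overlapped each other. miR-155-5p in HF stood at 1.18 of Cont (1.07 to 1.30), and in HF-R at 1.17 of Cont (1.06 to 1.29) and 0.990 of HF (0.910 to 1.08), none reaching 1.5-fold. The HF/Cont ratio was on the other side of 1 with TMM, at 0.926 (0.842 to 1.02), and was 1.01 (0.919 to 1.11) with DESeq2's size factors, whereas the HF-R/Cont ratio was 1.17 and 1.22 under them. The HF-R/HF ratio was 1.27 (1.16 to 1.38) with TMM, 1.2 (1.11 to 1.31) with DESeq2's size factors and 1.09 (1.00 to 1.19) without miR-1 in the totals. The intervals of these last HF-R/HF ratios lay above 1. Relative to the median entry, the log2 ratio of miR-155-5p was 0.08 in HF/Cont, 0.26 in HF-R/Cont and 0.28 in HF-R/HF.

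The order of levels among the 6 entries also differed between libraries. These counts hold exact reads only, apart from that of miR-150-5p, which was not checked. In HF-R, miR-155-5p and miR-150-5p came first with overlapping intervals, then miR-142-3p, then miR-142-5p and the 24 nt form of miR-146b-5p with overlapping intervals, then the 22 nt form. In HF, miR-155-5p stood above miR-150-5p and no neighbours overlapped. In Cont, miR-150-5p stood above miR-155-5p, and miR-142-3p overlapped the 24 nt form of miR-146b-5p. Among the 356 entries ranked by level, miR-150-5p was 93rd in HF-R, 112th in HF and 85th in Cont, while miR-155-5p was 90th, 98th and 102nd in the same libraries. With the partial reads described below added, the order was another. The 22 nt entry of miR-146b-5p then stood at 412 CPM in HF-R, 394 CPM in HF and 459 CPM in Cont, above miR-155-5p at 346, 300 and 256 CPM. miR-142-5p then stood above miR-142-3p in HF-R and Cont, and below it in HF.

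miR-223-3p, the neutrophil miRNA, was scarce. The entry rno-miR-223-3p had 5 counts (0.835 CPM, 0.271 to 1.95) in HF-R, 8 counts (1.30 CPM, 0.561 to 2.56) in HF and 3 counts (0.637 CPM, 0.131 to 1.86) in Cont. A 22 nt form, 1 base longer and listed in the tables of each library only, had 10 exact reads in HF-R, 16 in HF and 3 in Cont. For this 22 nt form of miR-223-3p the HF/Cont ratio was 4.08 (1.17 to 21.9) and the HF-R/Cont ratio 2.62 (0.675 to 14.8) by CPM. With DESeq2's size factors the HF/Cont ratio was 3.49 (1.00 to 18.7), and with TMM the interval took in 1, at 3.2 (0.916 to 17.1). With its partial reads added, the ratios by CPM were 1.96 (1.08 to 3.74) for HF/Cont and 1.77 (0.957 to 3.42) for HF-R/Cont. At this depth a difference of miR-223-3p between HF-R and Cont was not detectable.

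The tables of each library also give partial reads, labelled as a 70 to 99% match and counted apart from the exact reads. The class was not limited to shorter reads, since a listed miR-142-5p read held the whole mature sequence with 2 more 5′ bases. miR-142-5p had 1109 partial reads (185 CPM) in HF-R, 631 (103 CPM) in HF and 1262 (268 CPM) in Cont. HF was again lowest, at 0.383 (0.347 to 0.421) of Cont, and HF-R/HF was 1.81 (1.64 to 1.99). For exact and partial reads together, miR-142-5p in HF stood at 0.441 of Cont (0.406 to 0.478), and in HF-R at 0.715 of Cont (0.666 to 0.768) and 1.62 of HF (1.49 to 1.76). The exact reads made up 24.7% (22.5 to 27) in HF-R, 32.4% (29.4 to 35.5) in HF and 22.1% (20.1 to 24.2) in Cont of this sum. Of the listed sequences, 26 in HF-R, 19 in HF and 24 in Cont were listed under both arms of miR-142, so part of the partial reads may belong to the other arm.

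miR-142-3p had 457 partial reads (76.3 CPM) in HF-R, 477 (77.5 CPM) in HF and 503 (107 CPM) in Cont, with an HF/Cont ratio of 0.726 (0.639 to 0.824). The 5p arm made up 70.8% (68.5 to 73.1) of the partial reads of both miR-142 arms in HF-R, 56.9% (54.0 to 59.9) in HF and 71.5% (69.3 to 73.6) in Cont. It was thus the larger part of the partial reads and the smaller part of the exact reads. For miR-155-5p, partial reads numbered 1008 (168 CPM) in HF-R, 743 (121 CPM) in HF and 488 (104 CPM) in Cont. The partial reads of miR-155-5p were thus highest in HF-R, at 1.62 (1.46 to 1.81) of Cont, while its exact reads by CPM were within counting error of each other in HF-R and HF. For exact and partial reads together, miR-155-5p stood at 1.35 of Cont (1.26 to 1.46) in HF-R and at 1.17 of Cont (1.09 to 1.26) in HF.

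miR-146b-5p was mostly partial reads. The 22 nt entry had 2300 partial reads (384 CPM) in HF-R, 2301 (374 CPM) in HF and 2011 (427 CPM) in Cont, and the list of the 24 nt entry held nearly the same reads. Exact 22 nt reads were 6.73% (5.77 to 7.79), 5.19% (4.34 to 6.15) and 7.03% (5.99 to 8.19) of all reads of that entry in HF-R, HF and Cont. With the partial reads included, miR-146b-5p was no longer called lower, at 0.897 of Cont (0.846 to 0.95) in HF-R and 0.859 of Cont (0.810 to 0.911) in HF.

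**Figure D3:**
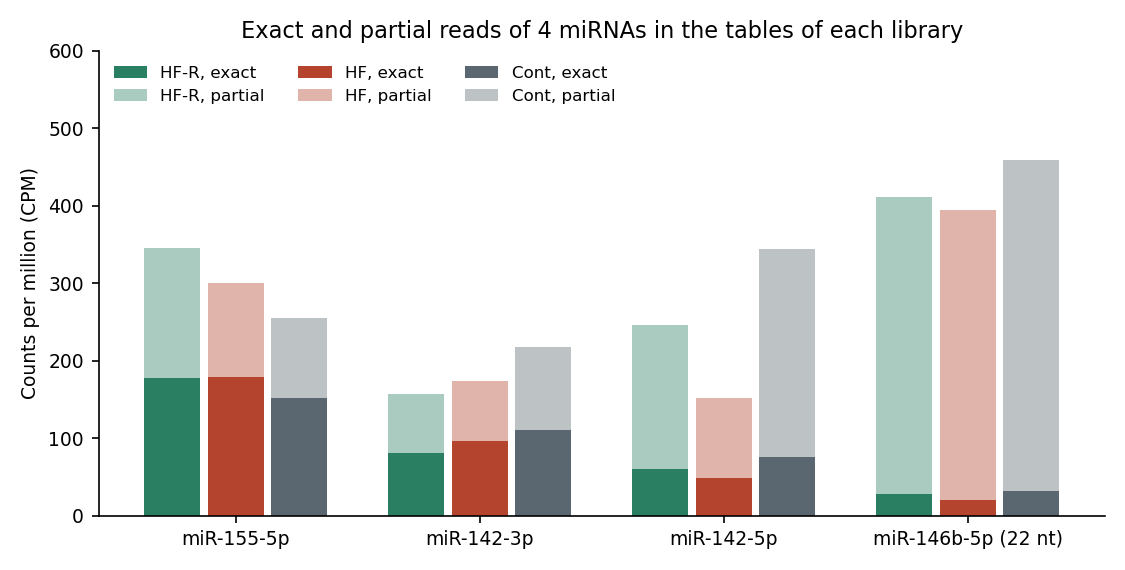
Exact reads (dark) and partial reads (light, stacked) in CPM (vertical axis, from 0) of miR-155-5p, miR-142-3p, miR-142-5p and the 22 nt entry of miR-146b-5p in the tables of the HF-R, HF and Cont library. miR-142-5p had the lowest stack in HF, with 246 CPM in HF-R, 152 CPM in HF and 344 CPM in Cont, and most reads of miR-146b-5p were partial.

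The partial tables list each different read sequence without its own count, so the lists show which forms were present and not how abundant each was. For miR-142-5p, 178 sequences were listed in HF-R, 151 in HF and 190 in Cont, and 66 were listed in all 3. Of those that could be placed on the mature sequence, 97 (57.4%) in HF-R, 84 (57.9%) in HF and 108 (59.7%) in Cont began 2 bases upstream of the annotated 5′ end, against 33.1%, 35.9% and 31.5% that began at that end. One such read, listed in all 3 libraries, is the whole mature sequence with 2 more bases, which move the seed.
miR-142-5p read with 2 more 5′ bases: cCCATAAAgtagaaagcactact
hsa-/mmu-/rno-miR-142-5p: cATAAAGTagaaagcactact

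Bases 2 to 8 are CCATAAA in the longer read and ATAAAGT in the annotated miRNA. miR-155-5p, miR-146b-5p and miR-142-3p kept their 5′ end more often among the listed sequences, and miR-150-5p had no such list. For miR-155-5p 184 of 200 placed sequences in HF-R, 167 of 175 (95.4%) in HF and 119 of 131 (90.8%) in Cont began at the annotated base, and for miR-146b-5p 82.8%, 85.8% and 86.6% did in the same libraries. For miR-142-3p the shares were 67.8%, 69.9% and 71.9%, with most of the rest beginning 1 or more bases downstream. The shares of each miRNA lay close together in the 3 libraries, including those of miR-142-5p, whose partial count in HF was the lowest.

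**Figure D4:**
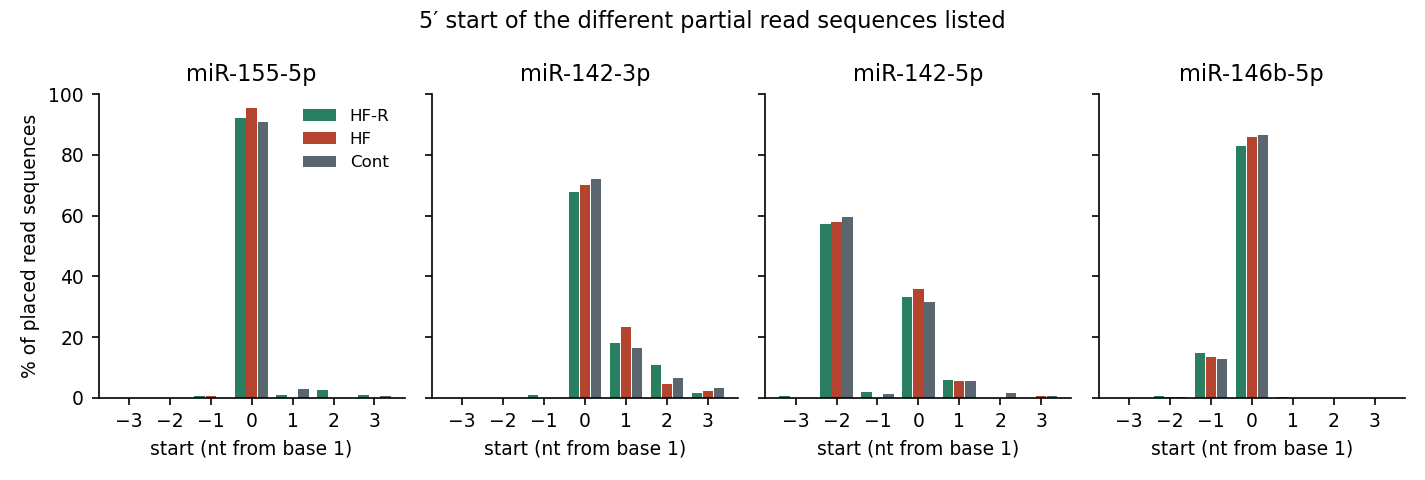
Share of the different partial read sequences placed on each mature miRNA (vertical axis, %) by the 5′ start of the read in nt from the annotated base 1 (horizontal axis, negative is upstream), for the HF-R, HF and Cont library. miR-142-5p has its main bar at -2, with 57.4 to 59.7% of sequences, where the other miRNAs have theirs at 0.

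The entries outside the group with the most similar pattern were taken as the nearest of 192 entries that averaged 100 counts or more, by the distance over the log2 ratios HF/Cont and HF-R/Cont. This is a description of 3 libraries that share Cont. Nearest to miR-150-5p were miR-423-5p (distance 0.075), at 778 CPM in HF-R, 629 CPM in HF and 1100 CPM in Cont, and let-7a-1-3p (0.11). Nearest to miR-142-3p were miR-151a-5p (0.0077) and let-7d-3p (0.013), and nearest to miR-155-5p were oar-miR-107 (0.065) and let-7e-5p (0.075). miR-369-3p and mmu-miR-3071-5p were the nearest to both miR-142-5p (0.043 and 0.063) and the 22 nt form of miR-146b-5p (0.065 and 0.048). For the 24 nt form of miR-146b-5p they were miR-95-5p (0.13) and miR-148a-5p (0.16). None of these 10 entries belongs to the blood-cell or inflammation lists used here.

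**Figure D5:**
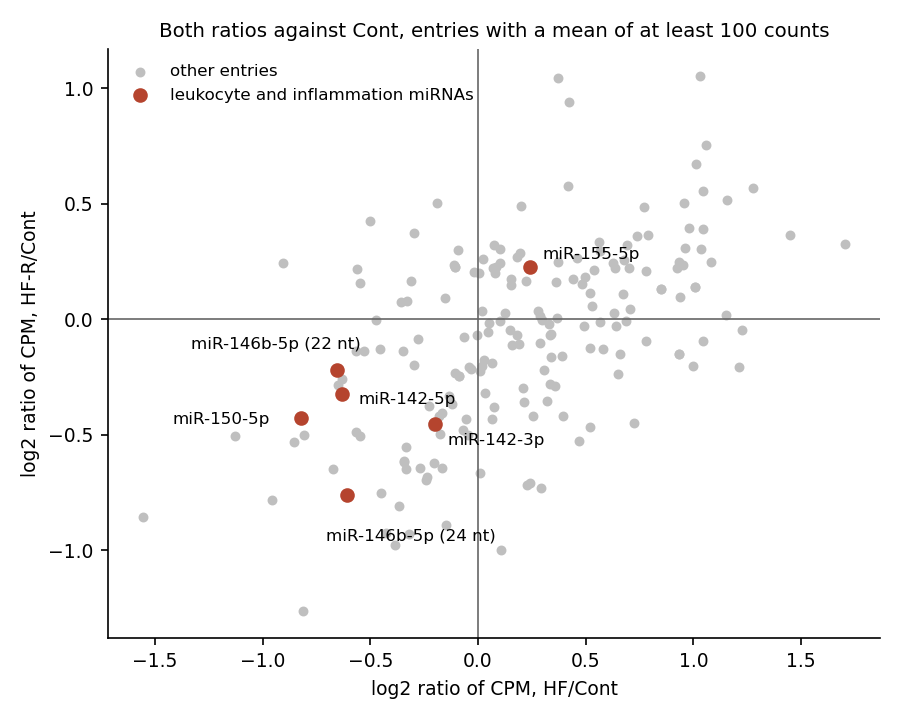
log2 ratio of CPM for HF/Cont (horizontal axis) against HF-R/Cont (vertical axis) for the 192 entries that averaged 100 counts or more, with the 6 members in red and labelled, and lines at 0. Both axes share the Cont library. Of the 6 members, 5 lie below 0 on both axes, and miR-155-5p lies above 0 on both.

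Other miRNAs linked to blood cell development or inflammatory signalling were set beside the members as a list of 57 entries, 38 of them averaging 10 counts or more. By CPM, HF/Cont had 9 of 38 called higher and 2 lower, HF-R/Cont had 3 higher and 4 lower, and HF-R/HF had 1 higher and 10 lower. The larger of these shares lay near the background, with 23.7% of the list against 22.8% of all entries higher in HF/Cont, and 26.3% against 23.3% lower in HF-R/HF. These counts changed with the scaling, with 2 higher and 6 lower for HF/Cont by TMM and 4 and 3 by DESeq2's size factors, where all entries had 11.8% higher and 20.8% lower by TMM and 14.6% and 14.9% by DESeq2's size factors. For HF-R/HF the list had 4 higher and 2 lower by TMM and 4 and 3 by DESeq2's size factors, against 16.3% and 9.27%, and 12.4% and 11.5%, of all entries. Relative to all entries, the median log2 ratio was -0.78 for the 6 members and 0.14 for this list in HF/Cont. It was -0.34 for the members and -0.04 for the list in HF-R/Cont, and 0.44 for the members and -0.06 for the list in HF-R/HF. miR-20a-5p, of the miR-17-92 cluster that acts in lymphocyte development, had 395 CPM in HF-R, 643 CPM in HF and 339 CPM in Cont. miR-181a-5p, which tunes T cell receptor signalling, had 1216 CPM in HF-R, 1941 CPM in HF and 1927 CPM in Cont. miR-21, which is raised in activated immune cells and fibroblasts, had 23307 CPM in HF-R, 14602 CPM in HF and 11298 CPM in Cont.

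The libraries carried the miRNAs of heart muscle, with 388549 CPM in HF-R, 319780 CPM in HF and 323618 CPM in Cont summed over 15 cardiomyocyte entries such as miR-1 and miR-499a. No entry of the endothelial miR-126 was among those analysed here. Red cell miRNAs mark the blood left in a sample. Summed over 5 erythroid entries they stood at 2899 CPM in HF-R, 3446 CPM in HF and 3473 CPM in Cont, a ratio of 0.992 (0.972 to 1.01) for HF/Cont and 0.835 (0.817 to 0.853) for HF-R/Cont. Most of this sum was miR-486-5p, which is also expressed in muscle, with 2771 CPM in HF-R, 3258 CPM in HF and 3236 CPM in Cont. By CPM, 0 of 5 in that list were called lower and 1 higher for HF/Cont (background shares 7.87% and 22.8%), and 2 of 5 lower for HF-R/Cont (background share 11.2%). The red cell miRNA miR-451-5p had 70.3 CPM in HF-R, 106 CPM in HF and 139 CPM in Cont, an HF/Cont ratio of 0.765, and miR-144-3p had 49.9, 67.8 and 87.5 CPM in the same libraries, a ratio of 0.775. Neither was called in HF/Cont by CPM. The entry called higher was hsa-miR-144-5p, with 14 counts in HF-R, 39 in HF and 11 in Cont, an HF/Cont ratio of 2.71 (1.36 to 5.88). It was also called higher by TMM (2.13) and by DESeq2's size factors (2.32), and mmu-/rno-miR-144-5p stood at 1.05 by CPM. Both miR-451-5p and miR-144-3p were called lower in HF/Cont by TMM, at 0.600 (0.538 to 0.670) and 0.607 (0.529 to 0.698), where 20.8% of all entries were called lower. They were also called lower by DESeq2's size factors, at 0.655 (0.587 to 0.731) and 0.663 (0.577 to 0.762), where 14.9% of all entries were. Fibroblast entries (4) summed to 1768 CPM in HF-R, 1616 CPM in HF and 1267 CPM in Cont, and smooth muscle entries (6) to 89129, 83643 and 102109 CPM. Most of the smooth muscle sum was miR-143-3p, with 88193, 82507 and 101251 CPM in the same libraries, and the median HF/Cont ratio of that list was 1.25. The part of blood content or of these other cell types in the ratios of the leukocyte and inflammation miRNAs was not tested.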

How the data were processed

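RNA of frozen left ventricle was pooled by group, and 1 small RNA library per group was sequenced on an Illumina NextSeq 500. The authors kept reads of 15 to 30 nt and matched them to miRBase v21 by Blast and then placed the matches on the Oar_v4.0 assembly by Bowtie (versions not given in the sources used here). Each deposited value is the raw count of reads per miRNA entry, blank where a library has none, taken as 0 here. A further deposited table for each library gives counts of exact and partial (70 to 99%) reads. Whether the deposited miR-150-5p count holds exact or partial reads could not be checked. Some lines of the tables were not used here.

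Overlapping entries whose 3 counts were identical were taken once, leaving 621 distinct entries and removing 15. Entries with nearly the same counts were kept, such as hsa-miR-92a-3p (1087 in HF) and mmu-/rno-miR-92a-3p (1067 in HF), so a read may enter the totals more than once. The totals also hold partial counts, as for oar-miR-133. Exact matches alone summed to 2569678 in HF-R, 2473386 in HF and 1888201 in Cont. Ratios of CPM have Clopper-Pearson 95% intervals and single counts exact Poisson intervals. A library at 0 was given a limit of 3 counts. Medians of lists set counts under 3 to 3. Entries were filtered at a mean of 10 counts, or 100 for similar patterns. Listed reads were placed without gaps over at least 12 bases with at most 2 mismatches. Chromosomes were named from the sheep miRNAs that the RefSeq annotation of another assembly also places. Exact tests between conditions were not possible with 1 library each.

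All members are named, with the 2 nearest entries of each abundant member, list members as examples and entries sharing a seed. The members, lists and rules were chosen with earlier results of these data known. The alternatives tried were TMM from edgeR, size factors from DESeq2, totals without miR-1, raw counts, totals of the perfect-match tables, counts of those tables, duplicates kept, other size thresholds (1.2 and 2) and other filters. Exact plus partial counts, other scalings of the partial reads of miR-155-5p, the 22 nt miR-223-3p and the red cell miRNAs, and the shares of all entries past other size thresholds were added after the data were seen. The code was tested on simulated data. Ratios, intervals and figures used Python 3.11.15 with scipy 1.17.1, numpy 2.4.6 and matplotlib 3.10.9. Size factors came from R 4.3.3 with DESeq2 1.42.0 and edgeR 4.0.16.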

Additional observations from a re-analysis of the deposited data

Results flagged for a closer look

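The merged count of miR-155-5p holds its exact reads only, and the 22 nt form of miR-223-3p has no merged entry of its own. In these reads 3 signals stood above the Cont library beyond counting error by CPM. The partial reads of hsa-miR-155-5p were higher in HF-R at 1.62 of Cont, and at 1.63 with TMM and 1.69 with DESeq2's size factors. In HF they stood at 1.17 of Cont by CPM, but at 0.914 (0.814 to 1.03) with TMM and 0.997 (0.889 to 1.12) with DESeq2's size factors, where the interval took in 1. The exact reads of the 22 nt hsa-miR-223-3p were higher in HF at 4.08 of Cont by CPM, on 16 counts in HF and 3 counts in Cont. The ratio was 3.49 (1.00 to 18.7) with DESeq2's size factors, and at 3.2 (0.916 to 17.1) with TMM the interval took in 1. The source of these differences was not tested.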

How the results depend on the processing

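No paired analysis was possible because each condition has 1 library. Of 188 alternative values for single members, 42 moved out of the interval of the reported ratio, mostly under TMM, DESeq2's size factors and raw counts, and 0 called ratios changed side. The 188 include values that could hardly move. The 3 entries under a mean of 10 counts had wide intervals, and the counts of the perfect-match tables equalled the merged ones. Exact plus partial counts moved 3 of 6 values for HF/Cont, 2 of 7 for HF-R/Cont and 3 of 6 for HF-R/HF. The number of members called for HF/Cont was 4, and was 1 with raw counts (miR-155-5p, higher, as were 44.9% of all entries) and 0 at 2-fold (11.2% of all entries higher, 2.81% lower). For HF-R/Cont it was 1, and was 0 with raw counts (19.9% of all entries higher, 2.81% lower) or at 2-fold (2.81% and 2.25%) and 4, all lower, at 1.2-fold (11.8% and 20.5%). For HF-R/HF it was 0, and was 3 (all higher) with TMM, with DESeq2's size factors and at 1.2-fold (16.3%, 12.4% and 10.4% of all entries higher). The summed ratio for HF/Cont (0.775) was 0.607 with TMM, 0.663 with DESeq2's size factors, 1.01 with raw counts and 0.661 without miR-155-5p. For HF-R/Cont (0.826) it was 0.901 without miR-1, 1.05 with raw counts, 0.772 with perfect-match totals and 0.730 without miR-155-5p. For HF-R/HF (1.07) it was 1.36 with TMM, 1.30 with DESeq2's size factors, 1.18 without miR-1 and 0.999 with perfect-match totals. The cause of these shifts beyond the scaling itself was not tested. Pooling hides the spread between sheep, and the low counts of miR-223-3p and miR-146b-3p limit their ratios.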
